A study of Mus musculus with 11 samples.

Results

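The 9 AP-1 factors described here were Fos, Fosb, Fosl2, Jun, Junb, Jund, Atf3, Maff and Bach1, taken by gene name from a table of 52636 genes. Each name matched 1 row. They were measured by RNA sequencing in CD8 T cells of C57BL/6 mouse spleen, in 4 libraries of CD45RBhi NP396+ memory cells, 4 of CD45RBlo NP396+ memory cells and 3 of naive CD44lo cells. Both memory groups were sorted with a tetramer that binds T cells specific for a peptide of the LCMV nucleoprotein, at week 6 (days 42 to 45) after intraperitoneal infection with 200000 pfu of LCMV Armstrong, a strain that causes an acute infection. The labels of the naive libraries carry the same infection text beside a time entry of 6 to 8 weeks, so whether these mice were infected, and whether their age differed, is not settled by the labels. They give a sort purity above 99 percent for all groups. CD45RB is a splice form of the phosphatase CD45, and the question the design asks is how memory cells with much and with little of it differ from each other and from naive cells.

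AP-1 is not 1 protein but a set of dimers of basic leucine zipper (bZIP) proteins. FOS proteins pair only with partners such as JUN proteins, JUN proteins can also pair with each other, and ATF, small MAF and BACH proteins join related dimers with other site preferences. In T cells, Fos and Jun are immediate early genes, transcribed within minutes of receptor signalling, and their dimers bind with NFAT at cytokine genes. JUNB and JUND are also found in resting lymphocytes, and BACH proteins bind overlapping sites as repressors.

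Library totals ran from 18.02 to 23.2 M counts. Levels are given as CPM, counts set against a library's TMM-scaled total. A count of 0 allows up to 3 counts, or 0.130 to 0.170 CPM depending on the library, and such limits cover counting error only. Markers of CD8 T cells summed to 11047 to 13695 CPM in CD45RBhi, 10872 to 13290 in CD45RBlo and 9834 to 10477 in naive libraries. The markers of other cell types differed between memory and naive libraries. The 17 B cell markers summed to 232 to 522 CPM in CD45RBhi, 217 to 469 in CD45RBlo and 1251 to 1444 in naive libraries. The 12 erythroid and platelet markers summed to 1.52 to 3.35, 3.84 to 30.1 and 253 to 547 CPM in the same order of groups, and the 20 myeloid markers to 46.6 to 58.4, 42.7 to 65.6 and 50.7 to 80.9 CPM. The 13 NK cell markers, several of which memory CD8 T cells also express, summed to 707 to 1397 CPM in CD45RBhi, 1236 to 2002 in CD45RBlo and 41.1 to 49.4 in naive libraries, and the 10 CD4 and regulatory T cell markers to 149 to 219, 177 to 232 and 59.5 to 73.1 CPM. Replicate 1 was examined because Jun and Fosb were highest there in both memory groups. Of 13735 genes tested, 11.2% lay higher in both libraries of replicate 1 than in all 6 other memory libraries and 10.6% lay lower. That count was not made for the other replicates, so replicate 1 is not shown to be the only pair set apart. Deviations from the group means correlated between same-numbered memory libraries at 0.425, 0.452, 0.208 and 0.191 for replicates 1 to 4. The values of Fosb and Jun, which rest on the libraries of replicate 1, are also given without them. The labels do not say that replicates were separate animals, so p-values stand against the spread of these samples alone, part of which may be technical.

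Promoter windows of 3 members are shown because of the values below: Fos and Maff both fell in memory cells, and Jun parted the libraries of replicate 1 from the rest. Each is 250 bases before the transcript start given by RefSeq on GRCm38.p6, read along the gene's strand, 5′ to 3′. Capitals mark a match to TGACNTCA, the CRE type of site that JUN and ATF dimers are known to bind.

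Fos, chr12:85473640-85473889, plus strand: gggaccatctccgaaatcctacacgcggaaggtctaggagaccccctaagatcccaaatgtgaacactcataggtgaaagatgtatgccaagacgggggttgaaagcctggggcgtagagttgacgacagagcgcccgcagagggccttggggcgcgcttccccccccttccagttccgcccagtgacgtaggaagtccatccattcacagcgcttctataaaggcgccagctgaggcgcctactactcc
Jun, chr4:95052223-95052472, minus strand: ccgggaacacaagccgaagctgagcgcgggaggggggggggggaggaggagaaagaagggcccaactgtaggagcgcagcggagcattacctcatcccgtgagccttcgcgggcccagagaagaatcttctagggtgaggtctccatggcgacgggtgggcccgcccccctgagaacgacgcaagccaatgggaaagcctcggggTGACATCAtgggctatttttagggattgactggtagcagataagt
Maff, second start, chr15:79347270-79347519, plus strand: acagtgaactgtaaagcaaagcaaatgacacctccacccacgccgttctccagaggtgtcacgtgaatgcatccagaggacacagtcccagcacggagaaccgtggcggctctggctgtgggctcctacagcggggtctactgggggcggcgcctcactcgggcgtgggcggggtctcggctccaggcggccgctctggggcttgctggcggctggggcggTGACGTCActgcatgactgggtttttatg

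RefSeq windows were matched for 9 of 9 members. The match in Jun was TGACATCA, 45 to 38 bases before the start, and that in Maff was TGACGTCA, 29 to 22 bases before its second start. Of the other Maff windows, that of the first start held no match and that of the third held TGACATCA 45 to 38 bases before it. On both strands, TGACNTCA was found in 7.49% of 32817 RefSeq promoters of the same length, the TRE type TGANTCA in 6.75% and the CArG box, bound by serum response factor, in 1.47%. No match to the TRE or CArG spelling was in the windows of the 9 members. Sites more than 250 bases before the start, or spelled otherwise, were not sought, so this does not show that a gene lacks them. The Jund window ends at 70697738, before the annotated start of the gene at 70698949. A match is a description of letters and no evidence of binding.

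**Figure D1:**
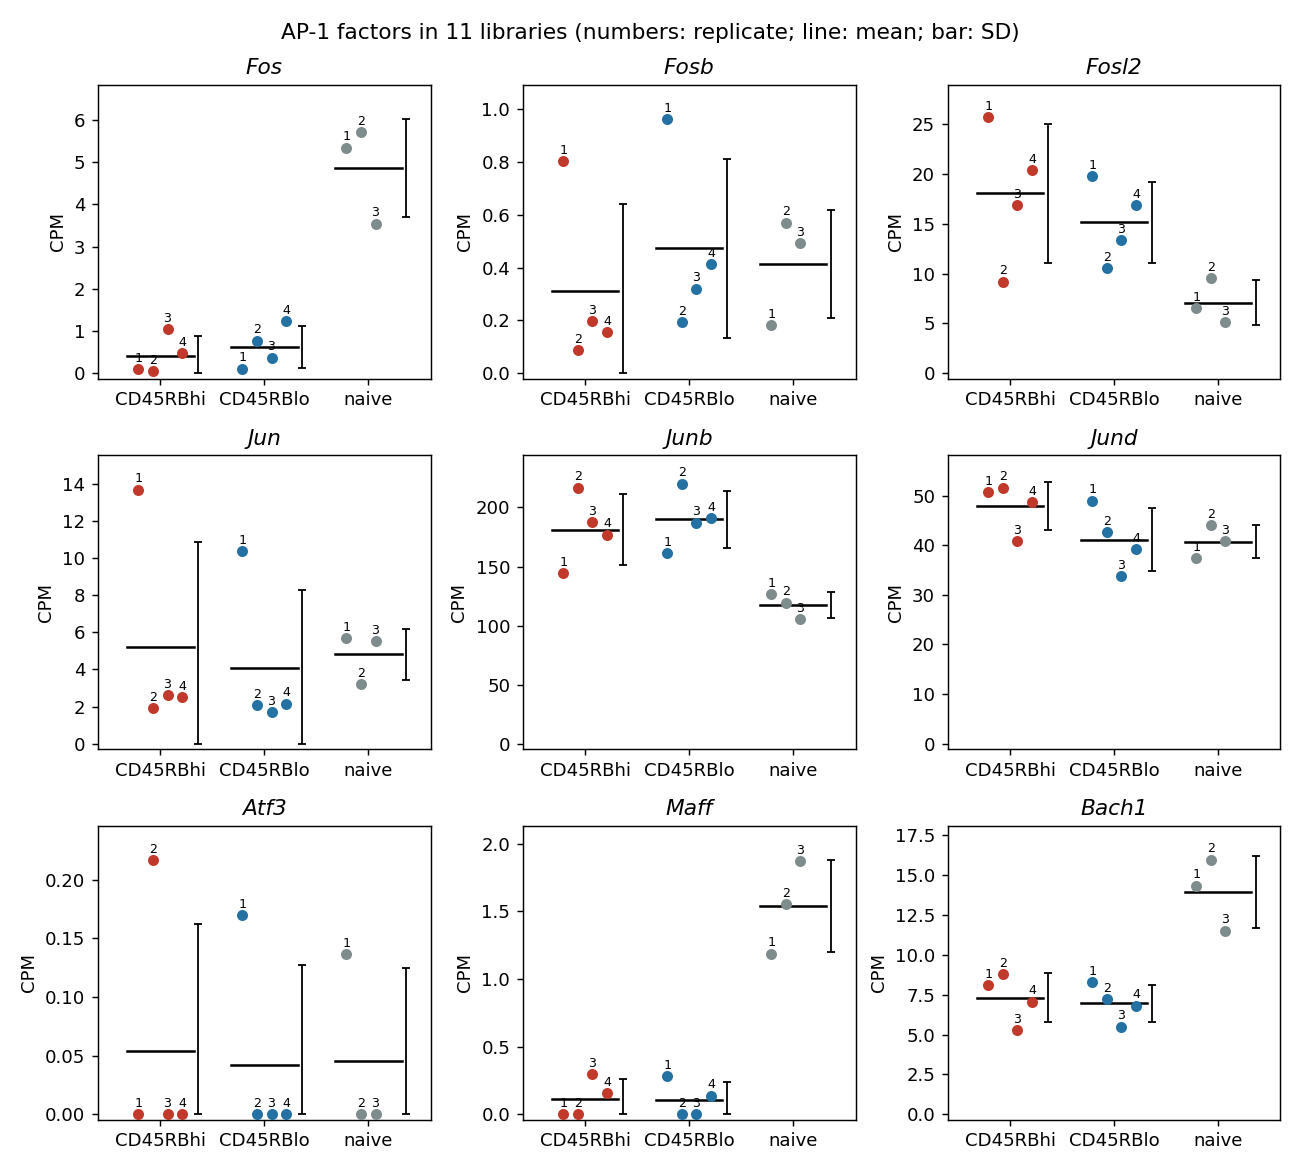
CPM (y axis, linear, 1 scale per gene) of the 9 AP-1 factors in each of 11 libraries, grouped as CD45RBhi, CD45RBlo and naive. Points carry the replicate number, lines are means and bars are SD, drawn no lower than 0. Fos and Maff sit near 0 in all 8 memory libraries, and Jun is high in replicate 1 of both memory groups.

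Fos fell in both memory groups. Its protein is the classical partner of JUN in activated T cells. Counts were 2, 1, 21 and 9 in CD45RBhi libraries, 2, 16, 7 and 27 in CD45RBlo libraries and 117, 110 and 72 in naive libraries. All 8 memory libraries lay below all 3 naive libraries, and the memory groups overlapped. The means were 0.415 ± 0.460 CPM in CD45RBhi, 0.626 ± 0.493 in CD45RBlo and 4.86 ± 1.16 in naive libraries (SD, n = 4, 4 and 3). Fos was 11.7-fold lower in CD45RBhi than in naive cells (log2 fold change -3.55 ± 0.746 SE, adjusted p = 0.00202 by edgeR's quasi-likelihood test) and 7.55-fold lower in CD45RBlo (-2.92 ± 0.714, adjusted p = 0.00531). Without replicate 3 of CD45RBhi, which held 21 of the 33 counts of that group, the first log2 fold change was -4.58. Fos (ENSMUSG00000021250) lies on GRCm38 chromosome 12 from 85473890 to 85477273, plus strand, with 4 exon blocks.

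Most B cell, myeloid, erythroid and platelet markers moved the same way as Fos between memory and naive libraries, while NK cell markers and most called CD4 and regulatory T cell markers moved the other way. Of 15 B cell markers tested, 12 were lower in CD45RBhi and 13 in CD45RBlo than in naive cells, with 1 higher in each, the inhibitory receptor gene Cd22. Of 13 myeloid markers tested, 8 were lower and 3 higher in each memory group, and all 10 erythroid and platelet markers tested were lower in both. Of these, the B cell markers Blk and Ebf1 and the myeloid marker Mpeg1 had fewer than 10 counts in each memory library. So did Itga2b, Pf4, Ppbp and Slc4a1 of the erythroid and platelet markers. They passed the filter on low counts only through naive libraries, so the filter favoured their direction. Over all genes tested, 22.3% were higher and 19.1% lower in CD45RBhi, and 22.4% and 19.8% in CD45RBlo. All 11 NK cell markers tested were higher in both memory groups, 8 of them with fewer than 10 counts in each naive library. Of 9 CD4 and regulatory T cell markers tested, 5 were higher and 1 lower in each. Among these 9, Zbtb7b had fewer than 10 counts in each naive library and Foxp3 in each memory library. The filter favoured the direction of all such markers. Ncr1, an NK cell marker, had 2, 2 and 2 counts over the CD45RBhi, CD45RBlo and naive libraries, and Cd4 had 3, 7 and 14. Neither was among the markers tested. Lyz2, the lysozyme gene of macrophages and neutrophils, averaged 0.517 CPM in CD45RBhi, 1.04 in CD45RBlo and 17.2 in naive libraries. Of the B cell markers, Pax5 was at 0 counts in all memory libraries and had 12 counts over the naive ones. S100a9, a neutrophil gene, was at 0 in all 11 libraries. The part of these cells in the values of Fos, Maff and Bach1 was not tested. In sorted bulk cells, fewer cells that hold a transcript and less of it per cell cannot be told apart.

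Fosl2 rose in both memory groups. It encodes FRA2, a FOS protein without the strong activation domain of FOS. Its levels were 25.7, 9.19, 16.9 and 20.3 CPM in CD45RBhi libraries, 19.8, 10.5, 13.3 and 16.8 CPM in CD45RBlo libraries and 6.53, 9.53 and 5.12 CPM in naive libraries. Each CD45RBlo library lay above each naive library, while replicate 2 of CD45RBhi lay within the naive range. Fosl2 was 2.55-fold higher in CD45RBhi than in naive cells (log2 fold change 1.35 ± 0.334, edgeR adjusted p = 0.00575) and 2.14-fold higher in CD45RBlo (1.10 ± 0.333, adjusted p = 0.0180). The second call was lost without naive replicate 1 (1.05, edgeR adjusted p = 0.0631) or naive replicate 3 (0.91, adjusted p = 0.0825).

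Fosb, whose protein carries an activation domain as FOS does, was near the limit of detection. Counts were 16, 2, 4 and 3 in CD45RBhi, 17, 4, 6 and 9 in CD45RBlo and 4, 11 and 10 in naive libraries. The 3 groups overlapped, and the highest memory values were those of replicate 1, at 0.802 CPM in CD45RBhi and 0.962 in CD45RBlo, against 0.0867 to 0.414 CPM in the 6 other memory libraries. The log2 fold changes against naive cells were -0.41 ± 0.769 in CD45RBhi (edgeR adjusted p = 0.704) and 0.18 ± 0.750 in CD45RBlo (adjusted p = 0.871). Without replicate 1 of CD45RBhi the first was -1.46 (edgeR adjusted p = 0.136), and without replicate 1 of CD45RBlo the second was -0.40 (adjusted p = 0.720). Without both, Fosb did not pass the filter on low counts.

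The FOS gene with the largest share of transcripts was Fosl2 in memory libraries and Fos in naive ones. Set per kilobase of exons, so that genes of different length can be compared, Fosl2 made up 89.9 ± 8.00% of the summed level of Fos, Fosb and Fosl2 in CD45RBhi, 81.8 ± 8.31% in CD45RBlo and 25.3 ± 2.75% in naive libraries (SD). Fos made up 8.00 ± 8.65%, 14.4 ± 10.1% and 72.3 ± 3.66% in the same order of groups, and its highest memory share, 22.8%, lay below its lowest naive share, 69.2%. The summed level per kilobase of the 3 FOS genes overlapped between groups, at 2.09 ± 0.784 CPM per kilobase in CD45RBhi, 1.90 ± 0.451 in CD45RBlo and 2.86 ± 0.700 in naive libraries. In CPM, where the long Fosl2 weighs more, the naive sum was the lowest and not the highest, at 18.7 ± 7.21 in CD45RBhi, 16.2 ± 4.23 in CD45RBlo and 12.3 ± 3.34 in naive libraries, and also overlapped. These shares describe transcripts and were not tested.

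**Figure D2:**
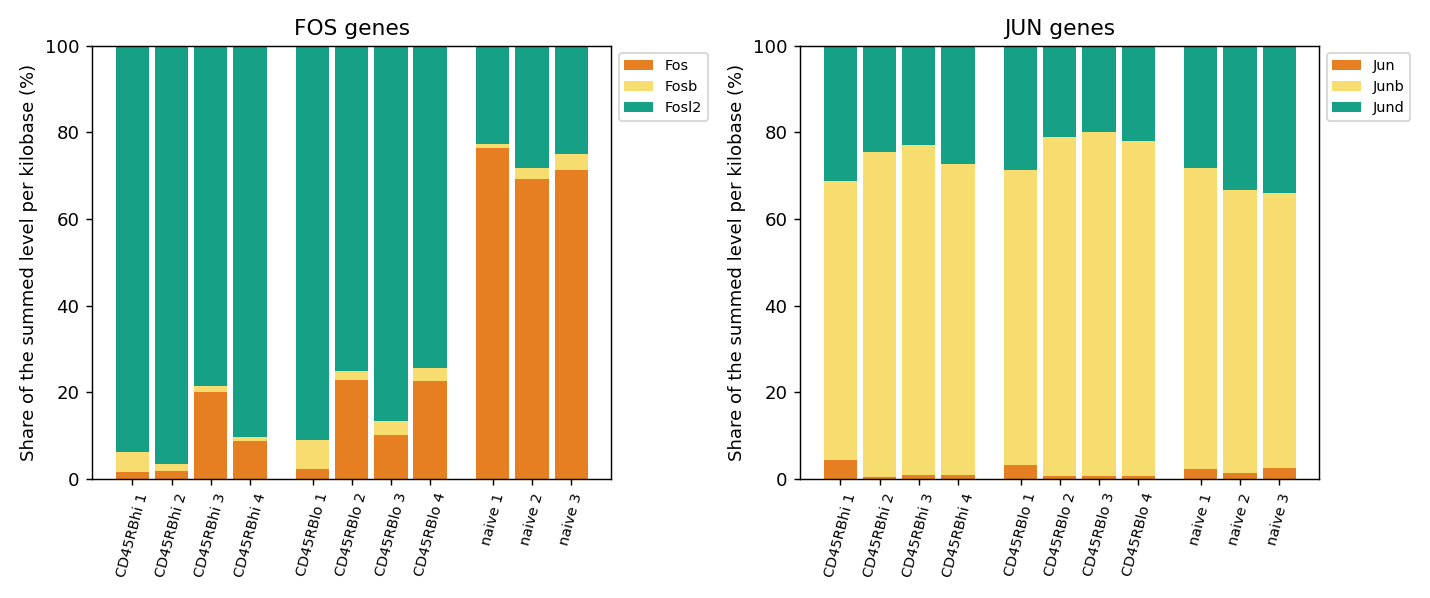
Shares (y axis, percent) of each FOS gene (left) and JUN gene (right) in the summed level per kilobase of exons, 1 bar per library, CD45RBhi, CD45RBlo and naive from left to right. Fosl2 fills 74.5 to 96.7% of the FOS bars in memory libraries, against 22.7 to 28.1% in naive ones, while Junb is the largest JUN share in all 11.

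Among the JUN genes, Junb rose modestly in both memory groups. Its product is a JUN protein that T cells use in dimers with BATF and FOS proteins. Levels were 144, 217, 187 and 177 CPM in CD45RBhi libraries, 161, 220, 187 and 191 CPM in CD45RBlo libraries and 127, 119 and 105 CPM in naive libraries. All memory libraries lay above all naive libraries, and replicate 1 was the lowest of both memory groups. Junb was 1.55-fold higher in CD45RBhi than in naive cells (log2 fold change 0.63 ± 0.137, edgeR adjusted p = 0.00264) and 1.62-fold higher in CD45RBlo (0.69 ± 0.138, adjusted p = 0.00129). Junb (ENSMUSG00000052837, chromosome 8, 84974484 to 84978718, minus strand) shares 173 bases, 7.52% of its exons, with Prdx2 on the other strand, which had 1410 to 2465 counts per library. The strandedness of the counting is not given in the sources used here.

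Jund, whose product is the JUN protein found in resting cells, was not called in any comparison. Its levels were 50.6, 51.6, 40.9 and 48.7 CPM in CD45RBhi libraries, 49.0, 42.6, 33.7 and 39.2 CPM in CD45RBlo libraries and 37.3, 44.0 and 40.9 CPM in naive libraries. The groups overlapped. The log2 fold change was 0.24 ± 0.132 for CD45RBhi over naive cells (95% interval -0.024 to 0.49, edgeR adjusted p = 0.175) and 0.013 ± 0.132 for CD45RBlo over naive cells (-0.24 to 0.27, adjusted p = 0.947).

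Jun, the founding AP-1 gene, divided the memory libraries by replicate number and not by CD45RB. Levels were 13.7, 1.91, 2.63 and 2.51 CPM in CD45RBhi libraries, 10.4, 2.08, 1.71 and 2.16 CPM in CD45RBlo libraries and 5.70, 3.21 and 5.51 CPM in naive libraries. Replicate 1 of each memory group lay above all naive libraries, and the 6 others lay below all of them. With all libraries, the log2 fold change was 0.10 ± 0.742 for CD45RBhi over naive cells (edgeR adjusted p = 0.925) and -0.25 ± 0.745 for CD45RBlo over naive cells (adjusted p = 0.816). Without both memory libraries of replicate 1, it was -1.04 ± 0.282 (edgeR adjusted p = 0.0120) and -1.27 ± 0.285 (adjusted p = 0.00392), a setting chosen after the values had been seen. The heat shock genes of the handling list, 17 genes, were highest in the same 2 libraries within their groups, at 7252 CPM summed in replicate 1 of CD45RBhi (range of the group 6109 to 7252), 7727 in replicate 1 of CD45RBlo (5586 to 7727) and 4446 to 4992 in naive libraries. Not every gene of that list followed its sum. Ubb had 19290 and 18963 counts in replicate 1 of CD45RBhi and CD45RBlo, against 21617 to 36389 in the other memory libraries. The immediate early gene Egr1 had 220 and 245 counts there, against 288 to 490. The part of the heat shock genes in the values of Jun was not tested.

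The order of the JUN genes was the same in all groups. Per kilobase of exons, Junb made up 71.9 ± 5.31% of the summed JUN level in CD45RBhi, 76.0 ± 5.24% in CD45RBlo and 66.2 ± 3.06% in naive libraries, Jund 26.5 ± 3.60%, 22.8 ± 3.96% and 31.8 ± 3.17%, and Jun 1.60 ± 1.88%, 1.21 ± 1.30% and 1.98 ± 0.614% (SD). Each of these shares overlapped between memory and naive libraries. The summed JUN level per kilobase did not overlap between memory and naive libraries, at 109 ± 11.9 CPM per kilobase in CD45RBhi, 108 ± 9.23 in CD45RBlo and 76.9 ± 4.24 in naive libraries.

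Atf3, a stress-induced bZIP repressor, was at or near 0 throughout. It had 0, 5, 0 and 0 counts in CD45RBhi, 3, 0, 0 and 0 in CD45RBlo and 3, 0 and 0 in naive libraries, and did not pass the filter on low counts. No difference was detectable at this depth.

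Maff, a small MAF protein without an activation domain, fell in both memory groups. It had 0, 0, 6 and 3 counts in CD45RBhi libraries, 5, 0, 0 and 3 in CD45RBlo libraries and 26, 30 and 38 in naive libraries. No memory library reached a naive one, and 2 libraries of each memory group held no count. The means were 0.114 ± 0.144 CPM in CD45RBhi, 0.105 ± 0.135 in CD45RBlo and 1.54 ± 0.342 in naive libraries. The log2 fold change was -3.72 ± 0.905 in CD45RBhi (edgeR adjusted p = 0.00522) and -3.83 ± 0.920 in CD45RBlo (adjusted p = 0.00475). It was -4.81 without replicate 3 of CD45RBhi and -4.82 without replicate 1 of CD45RBlo. Maff passed the filter on low counts only through the naive libraries, where it is high, so the filter itself required a difference and its call adds no support.

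Bach1, a heme-regulated repressor that pairs with small MAF proteins, fell to 7.30 ± 1.53 CPM in CD45RBhi and 6.95 ± 1.14 in CD45RBlo, against 13.9 ± 2.25 CPM in naive libraries. The libraries were at 8.12, 8.76, 5.27 and 7.06 CPM in CD45RBhi, 8.27, 7.21, 5.50 and 6.81 in CD45RBlo and 14.3, 15.96 and 11.5 in naive cells. All memory libraries lay below all naive libraries. Bach1 was 1.91-fold lower in CD45RBhi (log2 fold change -0.93 ± 0.201, edgeR adjusted p = 0.00241) and 2.01-fold lower in CD45RBlo (-1.004 ± 0.201, adjusted p = 0.00139).

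In all, 8 of the 9 members were tested. Against naive cells, 5 were called in CD45RBhi, 2 higher (Fosl2, Junb) and 3 lower (Fos, Maff, Bach1; Maff is counted although the filter favoured its call), where 41.5% of all genes tested were called, 22.3% higher and 19.1% lower. The same 5 were called in the same directions in CD45RBlo, where 42.2% of all genes were called, 22.4% higher and 19.8% lower. Both comparisons use the same 3 naive libraries. The median log2 fold change of the 8 members was -0.15 in CD45RBhi and -0.12 in CD45RBlo, beside -0.0077 and -0.0082 over all genes tested.

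Between CD45RBhi and CD45RBlo cells, 0 of 8 members were called by edgeR, 0 had an unadjusted p under 0.05, and 0.124% of all genes tested were called, 0.0801% higher and 0.0437% lower. The groups overlapped for each member. For Junb the log2 fold change was -0.066 ± 0.125, with a 95% interval of -0.31 to 0.18 (adjusted p = 0.908). The intervals were wide for Fos (-0.64 ± 0.762, -2.13 to 0.86) and Maff (0.11 ± 1.11, -2.07 to 2.29), whose counts were low in both groups. The other values were -0.59 ± 0.712 for Fosb, 0.25 ± 0.294 for Fosl2, 0.35 ± 0.692 for Jun and 0.073 ± 0.191 for Bach1, with edgeR adjusted p of 0.847 to 0.935.

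Jund had the smallest unadjusted p between the memory groups. It was 0.22 ± 0.122 log2 units higher in CD45RBhi than in CD45RBlo (edgeR adjusted p = 0.625). With the replicate number as a block it was 0.23 ± 0.0782 log2 units higher (unadjusted p = 0.0119, adjusted p = 0.109) and higher in CD45RBhi in 4 of 4 pairs. That fit kept 5 members, called 0 of them, and called 5.59% of all genes it tested, 2.52% higher and 3.08% lower. Fosl2 and Jun were higher in CD45RBhi in 3 of 4 pairs, Junb in 1 and Bach1 in 2. Fosb, too low to be tested in that fit, was higher in CD45RBhi in 0 of 4 pairs and lower in 4.

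**Figure D3:**
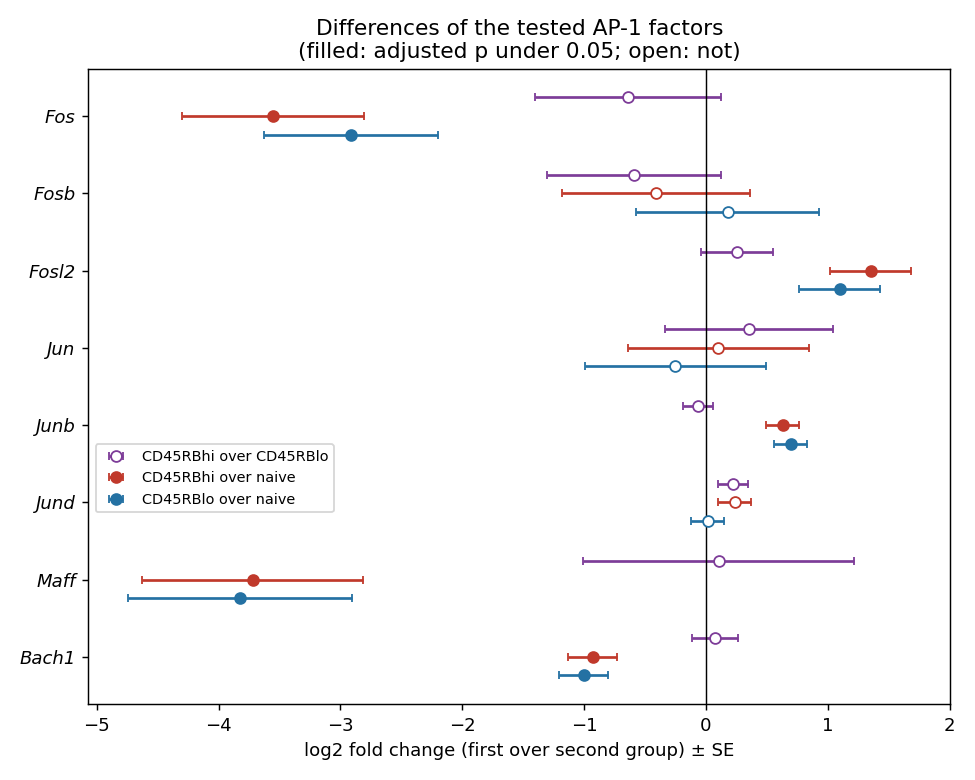
Log2 fold changes (x axis, first over second group, bars ± SE) of the 8 tested AP-1 factors for CD45RBhi over CD45RBlo, CD45RBhi over naive and CD45RBlo over naive cells. Filled points passed an adjusted p of 0.05. The values against naive cells lie on the same side in both memory groups for the 5 called genes, and no point between the memory groups is filled.

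Within groups the members did not vary as 1 block. Deviations of log2 CPM from the group means were compared over the 11 libraries, as a description in which same-numbered memory libraries share deviations. Junb moved opposite to Fosb (r = -0.91) and to Jun (r = -0.80), Fosb and Jun moved together (0.79), and so did Jund and Bach1 (0.83). Without replicate 1 of both memory groups these values were -0.77, -0.69, 0.59 and 0.87. Over genes of at least 10 CPM, the closest to Fos by the same measure was Timp2, a metalloproteinase inhibitor (0.94), the closest to Fosb was Iqgap2 (0.97), to Fosl2 Hipk3 (0.998), to Jun Dusp10, a phosphatase of stress-activated MAP kinases (0.97), to Junb the ribosomal protein gene Rpl4 (0.98), to Jund Klf13 (0.95), to Maff Taf10 (0.89) and to Bach1 Smad4 (0.93). By levels over all 11 libraries, which carry the group differences, the closest to Fos was Hnrnpr (0.95) and the closest to Bach1 was again Smad4 (0.98). Each is the highest value over many genes in 11 libraries, so high values are found without any link between genes. Fos, Fosb and Maff had at most 27, 17 and 6 counts in a memory library, so counting error weighs on their values.

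**Figure D4:**
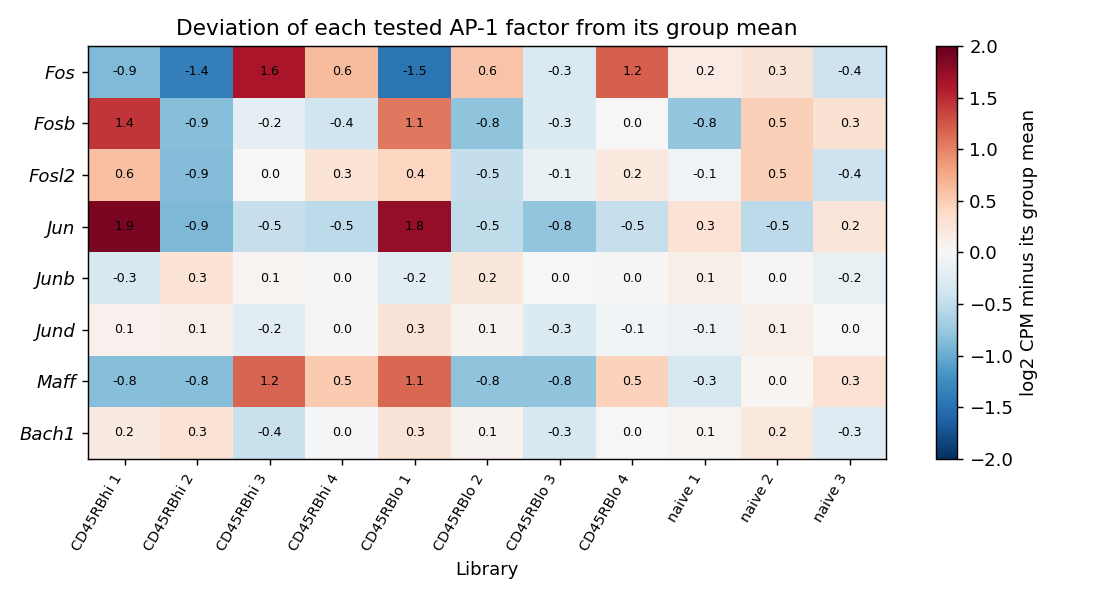
Deviation of log2 CPM from its group mean (colour and printed value, log2 units) for the 8 tested AP-1 factors (rows) in each library (columns; CD45RBhi, CD45RBlo, naive). Jun is 1.9 and 1.8 log2 units above its group mean in replicate 1 of CD45RBhi and CD45RBlo, and Junb 0.3 and 0.2 below.

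The other AP-1, MAF, BACH and NFE2-family genes moved in both directions. Of 13 tested, 4 were higher and 3 lower in CD45RBhi than in naive cells, and 5 higher and 4 lower in CD45RBlo, with median log2 fold changes of 0.046 and -0.058. Batf, a JUN partner without an activation domain, was higher at 114 ± 15.8 CPM in CD45RBhi and 112 ± 17.3 in CD45RBlo, against 36.5 ± 3.64 in naive libraries (log2 fold changes 1.64 and 1.62, edgeR adjusted p = 1.48e-06 and 1.52e-06). Jdp2, which encodes a repressor that pairs with JUN, was higher by 3.99 and 4.03 log2 units, at 11.2, 11.6 and 0.705 CPM in CD45RBhi, CD45RBlo and naive libraries. Bach2, the lymphocyte relative of Bach1, was lower at 29.2 ± 4.51 CPM in CD45RBhi and 25.5 ± 1.70 in CD45RBlo, against 118 ± 6.18 in naive libraries (-2.02 and -2.21). The small MAF gene Mafg was also lower (-0.88 and -0.56).

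BACH1 is known to repress antioxidant and iron genes. Of 10 such genes tested, 5 were higher and none lower in each memory group, where 22.3% and 22.4% of all genes tested were higher in CD45RBhi and CD45RBlo and 19.1% and 19.8% lower. Srxn1, encoding sulfiredoxin, averaged 9.72 ± 2.11 CPM in CD45RBhi and 11.8 ± 1.17 in CD45RBlo, against 0.262 ± 0.0435 in naive libraries (log2 fold changes 5.19 and 5.47). With 16 counts over the naive libraries and fewer than 10 in each, it passed the filter only through memory libraries, so its call adds no support. Fth1, the ferritin heavy chain, was higher by 0.56 and 0.38 log2 units. Hmox1, the heme oxygenase gene and best known BACH1 target, was not called, with means of 8.14 CPM in CD45RBhi, 9.57 in CD45RBlo and 11.8 in naive libraries (log2 fold changes -0.54 and -0.30). The list's median was 0.21 in both comparisons.

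Immediate early genes outside AP-1 were called in both directions. Of 37 tested, 17 were lower and 11 higher in CD45RBhi than in naive cells, and 13 lower and 12 higher in CD45RBlo, with medians of -0.21 and -0.11. Egr1, a zinc finger factor induced through the same kinases as Fos, averaged 17.5 ± 4.46 CPM in CD45RBhi and 18.1 ± 4.08 in CD45RBlo, against 120 ± 15.4 in naive libraries (log2 fold changes -2.78 and -2.73, edgeR adjusted p = 4.42e-07 and 4.95e-07). Its relative Egr2 was also lower (-3.67 and -3.34). Nr4a2, an orphan nuclear receptor gene, was higher (3.16 and 3.39), and so was Ier3, a regulator of cell survival (2.78 and 2.71). With the replicate block, Myc (0.75) and Pim1 (0.67) were higher in CD45RBhi than in CD45RBlo, and Dusp6 (-0.62) and Dusp2 (-0.36), phosphatases of MAP kinases, were lower.

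Genes described with AP-1 or NFAT:AP-1 sites in T cells were high in memory cells, and many are also effector genes by which memory is known. Of 22 in the list, 14 were tested, and 11 were higher in CD45RBhi and 12 in CD45RBlo than in naive cells, with medians of 4.95 and 5.06. Of the 14, 5 (Ccl3, Ccl4, Ifng, Il2 and Mmp9) had fewer than 10 counts in each naive library and passed the filter only through memory libraries, so their direction was favoured by the filter and the count and median add no support. Ifng, the interferon gamma gene, had 1627 counts over the CD45RBhi libraries, 1673 over the CD45RBlo libraries and 0 over the naive libraries. It was at least 128-fold higher in CD45RBhi and at least 137-fold higher in CD45RBlo, set against 3 counts per naive library, and the medians stay as given with Ifng at that bound. Fasl, a death ligand gene, averaged 131 CPM in CD45RBhi, 154 in CD45RBlo and 0.556 in naive libraries. With the replicate block, Pdcd1 (-0.50) and Havcr2 (-0.55), inhibitory receptor genes, were lower in CD45RBhi than in CD45RBlo, and Cd44 (0.21) was higher.

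Of 5 further lists of genes around AP-1, some were called in both directions and some only higher. Of 29 genes of the MAP kinase and T cell receptor route, 8 were higher and 3 lower in CD45RBhi than in naive cells and 9 higher and 4 lower in CD45RBlo, with medians of 0.016 and 0.11. These shares, 37.9% called in CD45RBhi and 44.8% in CD45RBlo, were near the 41.5% and 42.2% over all genes tested. Map3k8, a kinase upstream of ERK, was higher (0.87 and 0.96), and Rasgrp1, which couples the receptor to RAS, was lower (-0.62 and -0.70). Mapk11, a p38 kinase gene, was higher in CD45RBhi than in CD45RBlo with the replicate block (0.51, edgeR adjusted p = 0.0246). Of 9 factors that bind the Fos and Jun promoters, Elk3 (0.75 and 0.72) and Mkl2 (0.57 and 0.42), which act with serum response factor, were higher in both memory groups. None was lower, and medians were -0.089 and 0.056. The called share, 22.2% in both groups, lay below that over all genes tested. Of 8 genes for ubiquitin ligase parts that act on JUN proteins, 4 were higher, among them Fbxw7 (0.74 and 0.93) and Ndfip1 (0.67 and 0.65), and 2 were lower, with Trib2, an adaptor of the ligase COP1, at -2.57 and -2.48. The median of the 8 was 0.24 in CD45RBhi and 0.35 in CD45RBlo. Their called share, 75% in both groups, lay above that over all genes tested. Of 16 CREB, ATF and C/EBP factors, 6 were higher and 1 lower in each memory group. The called share, 43.8% in both, was near that over all genes tested. The largest changes were those of Atf6, a factor of the endoplasmic reticulum stress response (3.12 in both), and Nfil3 (2.79 and 2.63). Medians were 0.17 and 0.24. Atf5, tested but not called, had fewer than 10 counts in each naive library. Of 16 heat shock genes, 8 were higher in CD45RBhi (50%) and 10 in CD45RBlo (62.5%) and none was lower. Over all genes tested, 22.3% and 22.4% were higher and 19.1% and 19.8% lower. The co-chaperone gene Bag3 was at 2.81 and 2.75, and medians were 0.51 and 0.47. Among the 16, Hspa1a and Hspa1b had fewer than 10 counts in each naive library. They passed the filter only through memory libraries, so the filter favoured their direction.

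**Figure D5:**
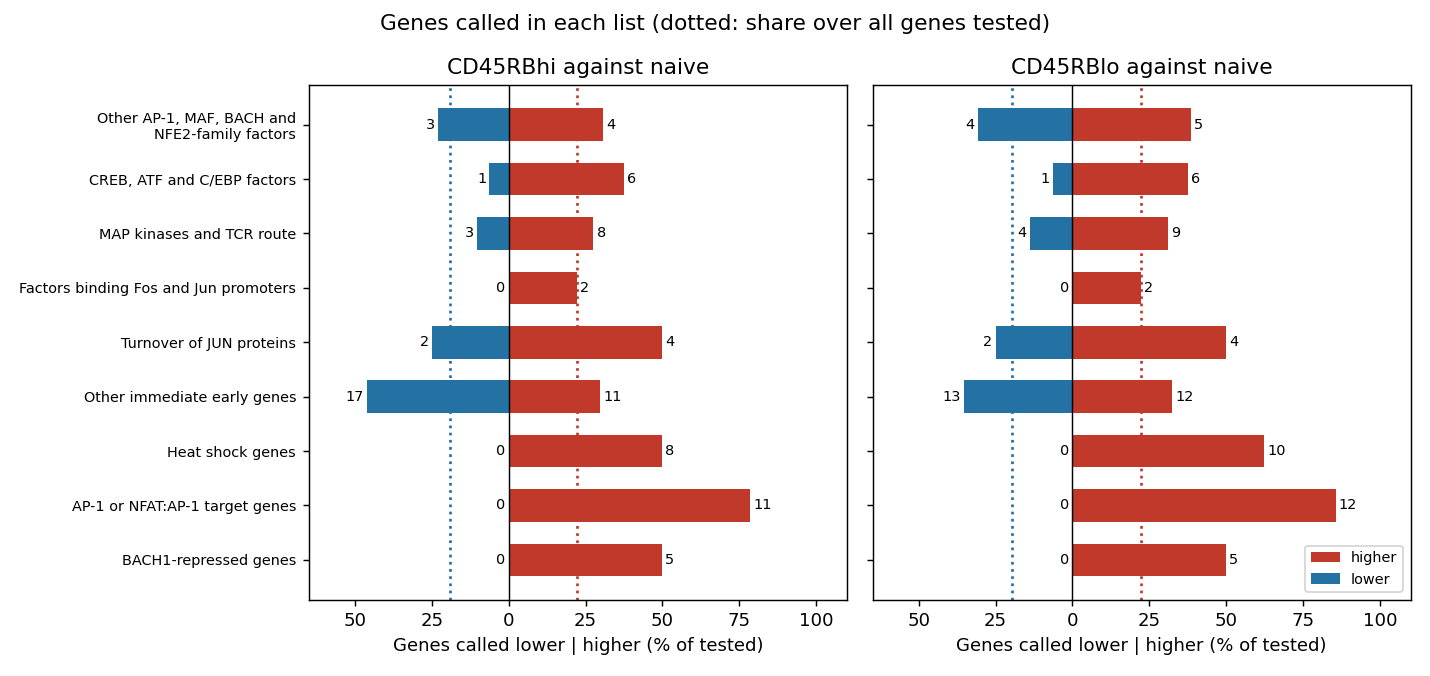
Genes called higher (right) and lower (left) than in naive cells in 9 lists of genes around AP-1, as a share of the genes tested (x axis, percent; counts printed), for CD45RBhi (left panel) and CD45RBlo (right panel). Dotted lines give the share over all genes tested. Immediate early genes lie past the lines on both sides, with 17 and 13 called lower and 11 and 12 higher, and AP-1 or NFAT:AP-1 targets on the higher side, with 11 and 12.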

How the data were processed

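Per the labels' protocols, RNA of sorted cells was extracted with a Qiagen Allprep kit and sequenced on Illumina libraries. The values the authors deposited are raw counts in 1 table, 1 row per Ensembl gene and 1 column per library, as whole numbers. Tools named in the submitters' processing notes are SAMtools, featureCounts and DESeq2, with mm10 and GRCm38 as builds. Neither the aligner nor the annotation release nor the strandedness is given in the sources used here.

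Genes were kept with filterByExpr (minimum count 10, 13735 of 52636), scaled by TMM, and fitted as group means over all 11 libraries. Groups were compared with the two-sided quasi-likelihood F test of edgeR, Benjamini-Hochberg adjusted over all genes tested, at a threshold of 0.05. "Called" means past it. Intervals are the value ± 1.96 SE. The steps were tested on simulated counts. Of 15 pairs of replicate libraries, 0 were identical. Replicate numbers paired the memory libraries in the data: same-numbered ones deviated together from the group means (r from 0.191 to 0.452), and others reached at most 0.0284. The labels do not state such a pairing. A second fit, of these 8 libraries with replicate number as block, tested 12637 genes. Exon lengths and positions came from GENCODE M21 on GRCm38 and promoters from RefSeq. Alternatives were other scalings, DESeq2, no filter, 2 groups alone, a 1.5-fold threshold, replicate blocks and leaving out libraries. Named genes were all members, up to 4 called genes per list and comparison with the largest change and at least 5 CPM, and the genes most like each member. Pax5, S100a9, Lyz2, Hmox1 and others given with their values outside that rule were chosen after their values were seen. The members and the 15 gene lists were chosen with earlier results of these data known. R 4.3.3, edgeR 4.0.16, limma 3.58.1, DESeq2 1.42.0 and matplotlib 3.10.9 were used.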

Additional observations from a re-analysis of the deposited data

Results flagged for a closer look

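Within the memory groups, 18 sets of 4 libraries were checked for a sample far from the other 3 and 5 held one. Chance alone gives about 1 in 20, but the 2 sets of Atf3 had 3 libraries at 0 counts, where any count in the fourth is marked, so the 5 are not set against that rate. Jun stood out in replicate 1 of CD45RBhi (13.7 CPM) and in replicate 1 of CD45RBlo (10.4 CPM). Fosb stood out in replicate 1 of CD45RBhi (0.802 CPM). Atf3 stood out in replicate 2 of CD45RBhi (0.217 CPM, 5 counts) and in replicate 1 of CD45RBlo (0.170 CPM, 3 counts), where the other libraries of each group held 0 counts. The cause was not tested.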

How the results depend on the processing

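Of the members called against naive cells, Fos was called in both comparisons under each alternative run (as was Maff, whose call the filter favoured), Junb and Bach1 under each but the 1.5-fold threshold (Bach1 in CD45RBlo was called there too), and Fosl2 was lost in places. Against a 1.5-fold change, 3 of the 5 members were called in CD45RBhi and 3 in CD45RBlo. There Junb (0.63) and Bach1 (-0.93) were lost for CD45RBhi, and Fosl2 (1.10) and Junb (0.69) for CD45RBlo. With a replicate block in the comparison with naive cells, whose numbers do not pair these libraries, Fosl2 was lost for CD45RBhi (1.23, edgeR adjusted p = 0.0549) and Jun turned to -0.14. That fit held 2 groups alone and left out memory replicate 4, so the block and the smaller set of libraries cannot be told apart. Scaling by library size alone turned Jun for CD45RBhi over naive to -0.057 and Jund for CD45RBlo over naive to -0.12. Without both memory libraries of replicate 1, Jun was -1.04 and -1.27 and Jund -0.080 for CD45RBlo over naive. The replicate block between the memory groups changed no member's call (Jund 0.23). Without replicate 2 in that fit, Bach1 was -0.011.

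Leaving out 1 library at a time moved CD45RBhi over CD45RBlo values to -0.79 to 1.38 for Jun, -1.64 to -0.0089 for Fosb, -0.16 to 0.029 for Junb, -0.98 to 1.10 for Maff and -0.027 to 0.20 for Bach1. Against naive cells it moved Fos to -4.58 to -3.16 in CD45RBhi and -3.49 to -2.59 in CD45RBlo, Maff to -4.81 to -3.29 and -4.82 to -3.41, Fosb in CD45RBhi to -1.46 to -0.088, and Jun to -1.04 to 0.38 in CD45RBhi and -1.27 to 0.0043 in CD45RBlo. In CD45RBlo, Fosb ran from -0.40 to 0.47, Fosl2 from 0.91 to 1.37 and Jund from -0.081 to 0.098. Members called were 0 between the memory groups, 5 for CD45RBhi and 4 to 5 for CD45RBlo over naive cells. Counts of Fosb, Atf3 and Maff limit what depth can show of them.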
